A study of Mus musculus with 12 samples.

Results

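The nuclear receptors are a family of transcription factors, and the 45 family members considered here were taken as the genes whose symbol was the single name of a probe set, in liver and in developing lung. Of the 45, 42 had such a probe set among the 17097 named genes on the arrays, and Rarb, Nr1d1 and Nr2e3 were not analysed here because no probe set carried their name alone. Where a gene had several probe sets, the one with the highest mean over the 6 arrays of a tissue was used in that tissue, without regard to any difference between groups. RNA was hybridized to 12 mouse HT MG430 PM arrays, a short-oligonucleotide expression array, and each value is a log2 intensity from robust multiarray averaging (RMA).

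All mice were on the C57BL/6 strain. Abcb11 encodes the bile salt export pump, which carries bile acids out of the hepatocyte, and mice without it become cholestatic. Livers came from female mice 1.5 months old, as 3 wild type (WT) and 3 Abcb11-/- samples. Lungs came from heterozygous Abcb11+/- offspring on embryonic days 17.5 and 18.5 (E17.5, E18.5) and neonatal day 0 (N0), either from a WT mother mated to an Abcb11-/- father or from an Abcb11-/- mother mated to a WT father, with 1 array for each stage and mother. All lungs therefore had 1 copy of Abcb11, and the mother's genotype and the father's changed together. The labels do not say how many pups were in each lung sample, whether litters were shared, or the sex of the pups. They also do not say that the 3 liver replicates of a genotype were separate animals, so liver p-values measure the spread between these samples. In lung, with 1 array for each stage and mother, the error of a fit is what stage and mother together leave unexplained. It is not a spread between replicate samples. The comparisons address which receptors differ in the cholestatic liver and in the lung of pups born to a cholestatic mother.

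Most nuclear receptors are switched by small lipophilic ligands. Nr1h4 (FXR) senses bile acids, Nr1i2 (PXR) and Nr1i3 (CAR) sense drugs and bile acid metabolites, the PPARs sense fatty acids, Nr1h3 (LXR alpha) senses oxysterols, and most of these bind DNA as a pair with a retinoid X receptor (Rxra, Rxrb, Rxrg). Nr3c1, the glucocorticoid receptor, is required for lung maturation before birth. Nr0b2 (SHP) lacks a DNA-binding domain and represses other receptors, and in liver it is a target of Nr1h4. The Nr4a receptors differ from these in that they are immediate early genes, controlled mainly by how much of them is made, and Nr1d2 and Rora belong to the circadian clock.

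Abcb11 itself stood at 11.22, 11.04 and 10.88 in the WT livers and at 2.90, 3.14 and 3.26 in the Abcb11-/- livers, so the 6 liver arrays matched their genotype labels. It lay between 2.96 and 3.20 on all lung arrays, which therefore could not be checked in this way. The summed level of 12 hepatocyte markers was 16.80 to 16.86 in WT and 16.77 to 16.86 in Abcb11-/- livers, and that of 9 alveolar markers was 14.50 to 15.08 over the lungs (log2). The E17.5 lung array from the Abcb11-/- mother stood apart, with 10 of 12 hepatocyte markers and 9 of 12 skeletal muscle markers at least 1.5-fold above the array from the WT mother. Median array values were 3.63 to 3.68 in lung and 3.15 to 3.18 in liver, so the tissues appear to have been normalized apart and levels were not compared between them, nor between genes, whose probes differ in brightness.

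Liver held 23 members with a log2 value of 5 or more on at least 1 array and lung held 19, of which 14 were shared. Past that level on liver arrays only were Hnf4a, Nr0b2, Nr1h4, Nr1i2, Nr1i3, Nr3c2, Nr5a2, Nr6a1 and Rxrg. Past it on lung arrays only were Nr2f1, Nr4a2, Nr4a3, Ppard and Rarg, of which Nr4a3 passed on the N0 array from the Abcb11-/- mother alone. Rxrg, Nr6a1 and Ppard lay close to the cutoff. Because the tissues appear to have been normalized apart, these lists describe each tissue by its own values. They do not show that a gene was higher in 1 tissue than in the other. The 14 members below 5 on every array of both tissues were Esr1, Esr2, Esrrb, Esrrg, Hnf4g, Nr0b1, Nr2c2, Nr2e1, Nr5a1, Pgr, Rara, Rorb, Thrb and Vdr, and a low value on these arrays does not show that a transcript was absent.

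In the Abcb11-/- liver the bile acid and xenobiotic sensors moved in different directions. Nr1i2 and Nr0b2 were higher than in WT liver, the fatty acid sensor Ppara and the bile acid sensor Nr1h4 were lower, and so was their partner Rxra. Of the 42 measured members, 3 were higher (Nr0b2, Nr1i2, Nr4a1) and 6 were lower (Ppara, Nr1h4, Esrrg, Rxra, Nr2f2, Nr5a2) at an adjusted p below 0.05 by limma, with p-values adjusted over all 17097 genes. Over all genes, 740 (4.33%) were higher and 498 (2.91%) were lower, so the share of members called lower, 14.3%, lay above that of all genes, and the share called higher, 7.14%, lay closer to it. Centring each array on its median moved the split over all genes to 548 higher and 1659 lower, because the median difference of all genes went from 0.00 to -0.16 (log2). Under quantile normalization the split was 633 and 665. The median difference of the members was -0.06. Bulk liver does not tell fewer cells of a type from less RNA per cell.

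**Figure D1:**
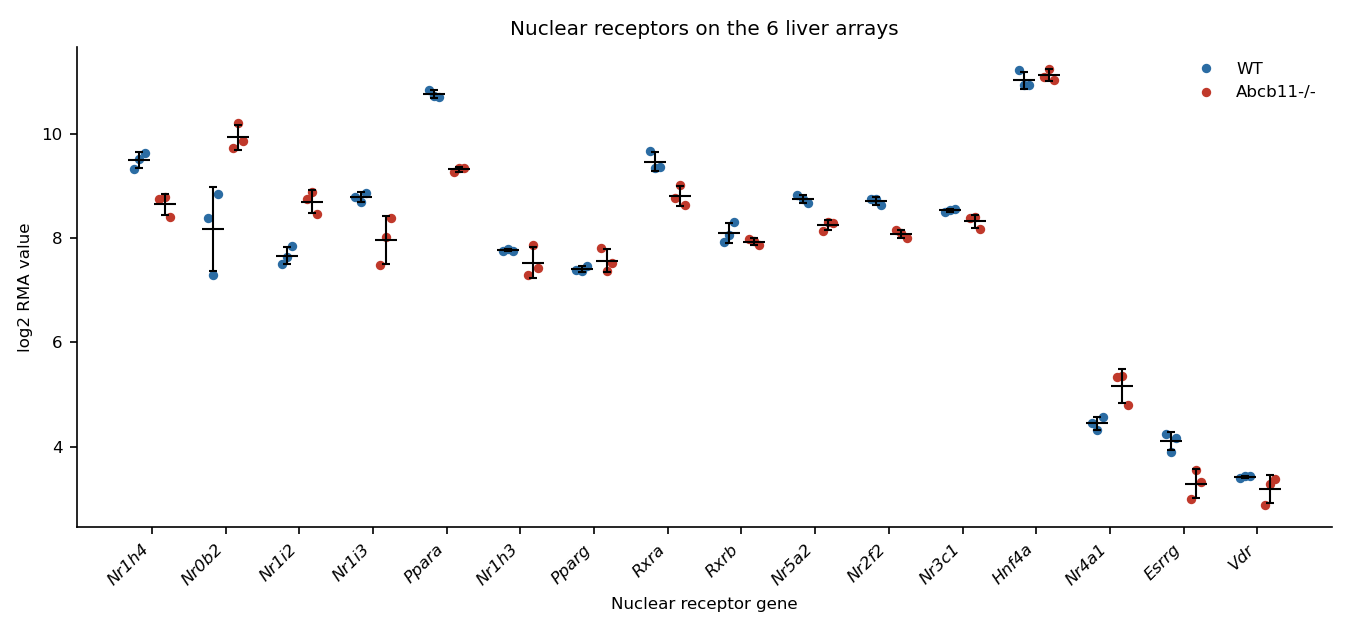
Log2 RMA values (vertical axis) of 16 nuclear receptor genes on the 6 liver arrays, with WT in blue and Abcb11-/- in red; each dot is 1 array and the bars are the mean ± SD (n = 3). Ppara, Nr1h4 and Nr2f2 sit lower in all 3 Abcb11-/- livers and Nr1i2 and Nr0b2 sit higher, while Hnf4a overlaps.

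Nr1i2, the pregnane X receptor, measured 7.51, 7.65 and 7.85 in WT livers and 8.75, 8.90 and 8.47 in Abcb11-/- livers. Every Abcb11-/- liver lay above every WT liver, and the difference was 1.04 ± 0.14 (log2, SE), or 2.05-fold (adjusted p = 0.00613). It held when any 1 array was left out (adjusted p 0.0103 to 0.0367), and the second probe set of Nr1i2 differed by 0.83. Nr1i3, the constitutive androstane receptor, read 8.80, 8.70 and 8.88 in WT livers and 7.49, 8.03 and 8.40 in Abcb11-/- livers. The groups did not overlap, but the Abcb11-/- livers spread widely, and the difference of -0.82 ± 0.21 did not pass (adjusted p = 0.0610). It passed without Abcb11-/- replicate 1 (adjusted p = 0.0449) or replicate 3 (adjusted p = 0.0292).

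Nr1h4, the receptor for bile acids, measured 9.34, 9.52 and 9.65 in WT livers and 8.76, 8.79 and 8.42 in Abcb11-/- livers. The groups did not overlap, and the mean in Abcb11-/- was 1.80-fold lower (log2 -0.85 ± 0.13, adjusted p = 0.0108). The call was lost only without WT replicate 2, among the 6 arrays left out in turn (adjusted p = 0.0545). Nr0b2, the repressor that Nr1h4 induces, went the other way, from 8.40, 7.29 and 8.85 in WT livers to 9.74, 10.21 and 9.87 in Abcb11-/- livers. Its difference was the largest of the members in size, 1.76 ± 0.36 (adjusted p = 0.0283), and WT replicate 2 lay more than 1 log2 unit below the other WT livers. Without WT replicate 1, Abcb11-/- replicate 2 or Abcb11-/- replicate 3, it did not pass (adjusted p 0.0602 to 0.0816). Vdr, the vitamin D receptor, which also binds lithocholic acid, was dim, at 3.40, 3.43 and 3.43 in WT livers and 2.87, 3.28 and 3.38 in Abcb11-/- livers, and was not called (-0.24, adjusted p = 0.374).

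Target genes of these receptors were listed to set beside them. Of 9 genes that Nr1h4 is known to control, 2 were higher and 2 lower, with a median of -0.02 against 0.00 over all genes. Slc51b, the beta subunit of the organic solute transporter of the basolateral membrane, rose from 5.15 ± 0.20 to 9.17 ± 0.28 (SD, n = 3, adjusted p = 5.27e-05). Abcb4, the phospholipid flippase of the canalicular membrane, rose by 0.78 (adjusted p = 0.0110). Cyp8b1, which directs bile acid synthesis to cholic acid and is repressed through Nr0b2, fell by 4.35 (adjusted p = 0.00204), and the deleted Abcb11 made up the count. Cyp7a1, the rate-limiting enzyme of bile acid synthesis, read 9.36 ± 0.42 in WT and 9.16 ± 0.71 in Abcb11-/- livers and was not called.

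Of 16 measured genes that Nr1i2 or Nr1i3 is known to induce, 5 were higher and 3 were lower, with a median of 0.04. Abcb1a, a drug efflux pump, rose by 2.69 ± 0.23 and Cyp2c55, a cytochrome P450 enzyme, rose by 2.62 ± 0.32. Gsta2 and Gstm3, glutathione transferases, rose by 1.89 ± 0.12 and 1.61 ± 0.26. Cyp2b10, a marker gene of Nr1i3, fell by 1.35 ± 0.22 (adjusted p = 0.0129). Cyp3a11, the usual marker gene of Nr1i2, differed by 0.22 and was not called (adjusted p = 0.260). The higher and lower genes of this list thus did not follow 1 direction.

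Ppara, the receptor that switches on fatty acid oxidation in the fasting liver, measured 10.86, 10.74 and 10.72 in WT livers and 9.27, 9.36 and 9.35 in Abcb11-/- livers. The replicates lay close together (SD 0.08 in WT and 0.05 in Abcb11-/-), and the mean was 2.73-fold lower in Abcb11-/- (log2 -1.45 ± 0.09, adjusted p = 0.000398). All 3 probe sets of Ppara fell, by 1.45 to 1.56, and the call held with each array left out. Pparg, the adipocyte receptor that also rises in fatty liver, stood at 7.39, 7.37 and 7.47 in WT and at 7.82, 7.38 and 7.52 in Abcb11-/- livers, which overlapped (0.16, adjusted p = 0.523). Ppard, a broadly expressed sensor of fatty acids, was dim and ranged from 3.18 to 3.74 over the 6 livers.

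Of 19 measured genes controlled by Ppara, 2 were higher and 3 lower, with a median of -0.16. Vnn1, a pantetheinase, fell by 1.32 ± 0.15 (adjusted p = 0.00290), and Angptl4, an inhibitor of lipoprotein lipase, fell by 1.01 ± 0.18 (adjusted p = 0.0160). Cpt1a, which admits fatty acids to mitochondria, fell by 0.59 ± 0.11. Against these, Cyp4a12a, a fatty acid hydroxylase, rose by 3.26 ± 0.35 and Pdk4, which restrains glucose oxidation, rose by 3.00 ± 0.51 (adjusted p = 0.0143).

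Nr1h3, the oxysterol receptor, read 7.76, 7.80 and 7.76 in WT and 7.30, 7.88 and 7.43 in Abcb11-/- livers. Abcb11-/- replicate 2 lay above the WT livers and the other Abcb11-/- livers below, and the difference of -0.24 was not called (adjusted p = 0.431); without replicate 2 it was -0.41 (adjusted p = 0.0478). Its list of 10 measured target genes includes Nr1h3 itself. Of the 10, 1 was higher (Abcg1, a cholesterol exporter, 0.94 ± 0.14) and 1 lower (Abcg8, which moves sterols into bile, -0.93 ± 0.14), with a median of -0.11.

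Of the shared partners, Rxra measured 9.68, 9.35 and 9.38 in WT livers and 8.78, 9.03 and 8.64 in Abcb11-/- livers. The arrays did not overlap and the difference was -0.65 ± 0.14 (adjusted p = 0.0305), a call lost when any WT array or Abcb11-/- replicate 1 or 3 was left out (adjusted p 0.0548 to 0.0964). A second Rxra probe set differed by -0.38 and the third, near the floor of the arrays, by -0.03. Rxrb read 7.93, 8.07 and 8.32 in WT and 7.99, 7.96 and 7.87 in Abcb11-/- livers. Rxrg read 5.29, 5.60 and 5.12 in WT and 5.47, 5.65 and 5.61 in Abcb11-/- livers. Both overlapped between genotypes (adjusted p = 0.482 and 0.367, with 95% intervals of -0.44 to 0.10 and -0.07 to 0.55).

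Of the orphan receptors, which were named before any ligand was known, 2 bright members were lower. Nr2f2 (COUP-TFII), better known from veins and mesenchyme, fell from 8.76, 8.76 and 8.64 to 8.16, 8.10 and 8.01 (-0.63 ± 0.09, adjusted p = 0.00702). All 4 of its probe sets were lower, by 0.45 to 0.63, and the call held without each array. Nr5a2 (LRH-1), which drives bile acid synthesis genes and which Nr0b2 represses, fell from 8.83, 8.76 and 8.68 to 8.15, 8.32 and 8.30 (-0.50 ± 0.09, adjusted p = 0.0190). The genotypes did not overlap, but the call was lost without any WT array or without Abcb11-/- replicate 3 (adjusted p 0.0514 to 0.0817). Hnf4a, the master regulator of hepatocyte identity, overlapped, at 10.94 to 11.23 in WT and 11.04 to 11.26 in Abcb11-/- livers.

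The other 2 calls were of dim probe sets. Esrrg, an estrogen-related receptor of oxidative tissues, read 4.24, 3.90 and 4.17 in WT livers and 2.99, 3.55 and 3.31 in Abcb11-/- livers (-0.82 ± 0.16, adjusted p = 0.0233), and its other probe set differed by -0.04. Nr4a1 rose from 4.46, 4.31 and 4.57 to 5.33, 5.36 and 4.79 (0.71 ± 0.16, adjusted p = 0.0434). The Nr4a1 call was lost with any array but Abcb11-/- replicate 3 left out (adjusted p up to 0.162), and the Esrrg call without any WT array or Abcb11-/- replicate 3 (adjusted p up to 0.0937). Of 15 measured immediate early genes, 5 were higher and 0 lower in the Abcb11-/- liver, among them Atf3 (2.64), Btg2 (1.70), Jun (1.67) and Ccn1 (1.23). Nr4a2 and Nr4a3 stayed below 5 on all livers and were not called.

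Nr3c1, the glucocorticoid receptor, measured 8.51, 8.55 and 8.57 in WT livers and 8.39, 8.41 and 8.18 in Abcb11-/- livers. Each Abcb11-/- liver lay below each WT liver, but the difference of -0.22 (95% interval -0.44 to 0.00) was not called (adjusted p = 0.238). Over its 5 probe sets the difference ran from -0.45 to -0.04, and a second bright one differed by -0.38. With all 5 averaged it was -0.25, also not called (limma, adjusted p = 0.0721). Of 14 measured glucocorticoid target genes, 2 were higher (Ddit4 1.23, Zbtb16 1.08) and 2 lower (Pik3r1 -0.92, Klf9 -0.74), with a median of 0.15. Nr3c2, the mineralocorticoid receptor, read 6.49 to 6.74 in WT and 5.76 to 6.30 in Abcb11-/- livers and was not called (-0.51, adjusted p = 0.0933), and it passed without Abcb11-/- replicate 1 (adjusted p = 0.0449).

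The clock receptors set Abcb11-/- replicate 3 apart. Nr1d2 (REV-ERB beta) read 9.82, 9.98 and 9.88 in WT livers and 9.64, 9.53 and 8.59 in Abcb11-/- livers, and Rora, which acts on the same DNA element in the opposite sense, read 8.25, 8.33 and 8.12 in WT and 7.80, 7.79 and 8.54 in Abcb11-/- livers. By the probe sets used, replicate 3 was thus the lowest of the 6 livers for Nr1d2 and the highest for Rora. Neither was called (adjusted p = 0.201 and 0.667), and without replicate 3 the differences were -0.31 and -0.44, also not called (adjusted p = 0.183 and 0.0824). The probe sets of Rora did not share a direction. Over its 5 probe sets the difference ran from -0.33 to 0.43, against -0.19 by the probe set used. The rise of 0.43 was on another bright probe set (mean 7.72 in WT and 8.14 in Abcb11-/- livers). With all 5 averaged the Rora difference was -0.02, also not called (limma, adjusted p = 0.946). Among 15 measured clock genes, 1 was lower (Hlf, -1.05) and 0 higher (10 at an unadjusted p below 0.05), with a median of -0.61. Dbp, a clock output gene, read 8.98, 8.61 and 4.94 in the 3 Abcb11-/- livers against a WT mean of 9.89, and Arntl (BMAL1) read 4.25, 5.53 and 7.23 against a WT mean of 3.16. The labels give no time of day for collection, and the part of collection time in these values was not tested.

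The remaining receptors of the bright liver set, Thra, Nr2c1, Nr2f6, Esrra and Nr6a1, were not called, and over all 15 uncalled members at 5 or more the differences ran from -0.82 (Nr1i3) to 0.35 (Thra). Of 7 measured thyroid hormone target genes, 4 were lower and 0 higher, with a median of -0.74. They were Dio1, a deiodinase (-3.65), Gpd2 (-1.31), Me1 (-0.82) and Klf9, which the glucocorticoid list also holds. The thyroid receptors themselves were not called by the probe sets used (Thra 0.35, adjusted p = 0.115, and Thrb -0.14, adjusted p = 0.421). Every Abcb11-/- liver lay above every WT liver for Thra, its other probe set differed by 0.41, and it was called higher with its probe sets averaged. None of 12 retinoid genes was called by limma (4 at an unadjusted p below 0.05), and of 11 coregulators 1 was higher, Nrip1 (RIP140), a corepressor of ligand-bound receptors (1.05 ± 0.14, adjusted p = 0.00551).

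Irrespective of the test, 6 members were higher and 12 lower with no overlap between the 3 WT and 3 Abcb11-/- arrays, or 14.3% and 28.6% of the 42. Over all genes this was so for 13.8% and 12.1%. Of markers of other cell types, 2 of 6 for bile duct (Epcam, Sox9) and 3 of 8 for neutrophils (S100a8, S100a9, Ngp) were higher in the Abcb11-/- livers. All 6 bile duct markers lay below 5 on every liver array, so their summed level adds up dim values. The summed level of the bile duct list ran from 5.92 to 6.07 in WT and from 6.30 to 6.60 in Abcb11-/- livers, and that of the neutrophil list from 6.39 to 6.89 and from 7.58 to 9.12 (log2). Of 12 endothelial and stellate markers, 1 was lower, Reln (-0.89, adjusted p = 0.00803), and 0 were higher. The part of these cells in the receptor differences, that of Nr2f2 included, was not tested.

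**Figure D2:**
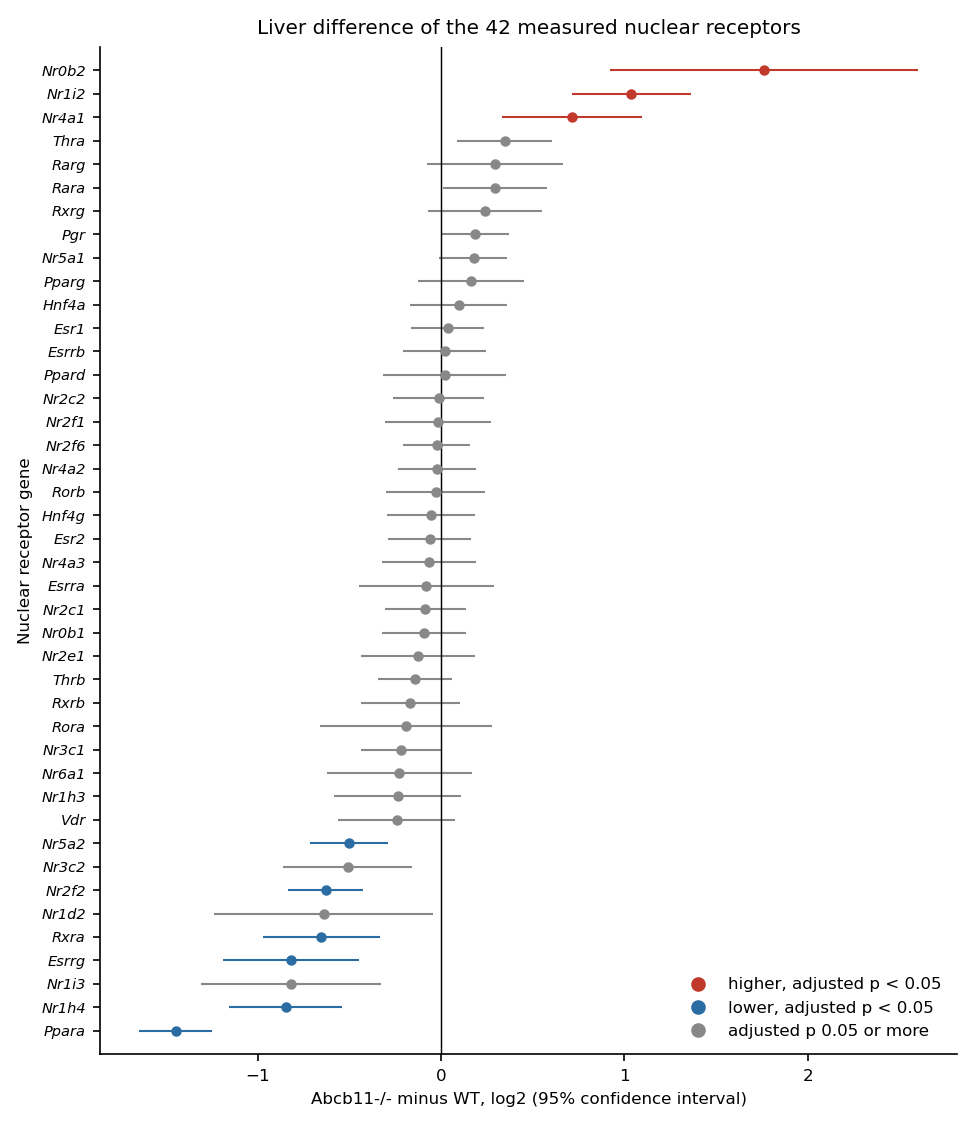
Difference between Abcb11-/- and WT liver (horizontal axis, log2, with the 95% confidence interval from limma, n = 3 per genotype) for the 42 measured nuclear receptors, in order of size. The 3 members called higher are red, the 6 called lower are blue and the other members are grey, from Ppara at -1.45 to Nr0b2 at 1.76.

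In the lung the Nr4a receptors stood out, and at N0 alone. On the N0 array from the Abcb11-/- mother, Nr4a1, Nr4a2 and Nr4a3 were all above the N0 array from the WT mother, by 7.04-fold, 3.22-fold and 5.65-fold, and by the probe set used for each gene, no other member with a log2 value of 6 or more on the brighter array was 1.5-fold apart at any stage. A second probe set of Rora read 5.70 and 6.30 at N0, a difference of 0.60 against -0.12 by the probe set used. This comparison had 1 array per group and so had no test. By stage, 0 of 12 members that reached this brightness were at least 1.5-fold higher and 0 lower at E17.5, 0 and 0 of 12 at E18.5, and 3 and 0 of 14 at N0. Nr4a2 and Nr4a3 reached this brightness only on the array on which they were high, so that their difference admitted them to the 14, and Nr4a1 was above it with both mothers. Over all genes as bright, 3.47% were higher and 3.80% lower at E17.5, 1.24% and 0.734% at E18.5, and 4.39% and 3.15% at N0. The median difference of the 42 members was -0.02, -0.01 and 0.03 at the 3 stages, against -0.03, 0.02 and 0.01 over all genes.

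The Nr4a receptors (NUR77, NURR1 and NOR1) are induced within minutes by calcium, cyclic AMP, hormones and stress, and cyclic AMP acts on such genes through CREB, which binds the half-site TGACG. The 250 bases before each gene start are shown because the 3 genes moved together, from RefSeq on GRCm38.p6 and written 5′ to 3′ on the strand of the gene, with TGACG on either strand (the other strand reads CGTCA) in capitals. They lie at chr15:101266596-101266845 (plus strand) for Nr4a1, chr2:57124004-57124253 (minus strand) for Nr4a2 and chr4:48045055-48045304 (plus strand) for Nr4a3.
Nr4a1: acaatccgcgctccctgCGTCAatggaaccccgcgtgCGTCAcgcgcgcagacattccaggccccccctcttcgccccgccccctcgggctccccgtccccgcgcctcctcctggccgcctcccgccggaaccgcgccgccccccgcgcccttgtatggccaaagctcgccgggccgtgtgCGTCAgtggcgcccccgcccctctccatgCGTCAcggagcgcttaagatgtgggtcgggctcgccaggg
Nr4a2: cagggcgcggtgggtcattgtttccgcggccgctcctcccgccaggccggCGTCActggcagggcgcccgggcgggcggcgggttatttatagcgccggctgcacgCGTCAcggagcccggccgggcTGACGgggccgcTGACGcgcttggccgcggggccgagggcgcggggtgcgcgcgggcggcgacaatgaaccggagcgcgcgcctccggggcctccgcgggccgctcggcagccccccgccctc
Nr4a3: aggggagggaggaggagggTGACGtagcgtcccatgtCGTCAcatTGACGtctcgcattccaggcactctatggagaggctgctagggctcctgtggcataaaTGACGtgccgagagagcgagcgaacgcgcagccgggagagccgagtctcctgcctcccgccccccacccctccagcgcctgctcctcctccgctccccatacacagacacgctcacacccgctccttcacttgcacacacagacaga

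Each of the 3 stretches held 4 copies of TGACG. Nr4a1 held all 4 on the other strand, Nr4a2 held 2 on each strand, and Nr4a3 held 3 on its own strand and 1 on the other. Among 32851 RefSeq promoters of mouse, 17.8% held at least 1 copy in the same window and 0.14% held at least 4. Counted by gene, with any promoter of a gene taken, 13 of the 38 measured members in the table held at least 1 copy (34.2%, against 19.8% of 27025 genes). The 3 Nr4a genes were the members with 4 (0.16% of all genes held at least 4). Hnf4g, Nr3c1, Nr5a1 and Thra were not in it. The palindrome TGACGTCA, which counts once on each strand, was in none of the 3 and in 1.55% of all promoters. The motif was chosen after the values were known, and a match of letters is not a bound site.

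**Figure D3:**
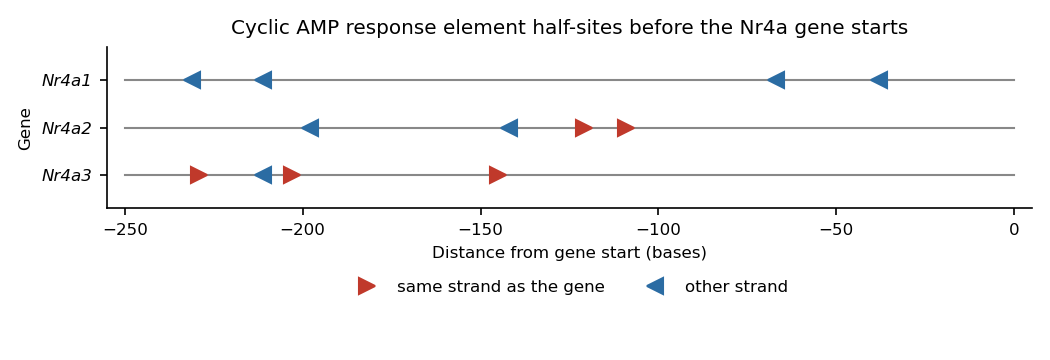
Positions of the cyclic AMP response element half-site in the 250 bases before the start of Nr4a1, Nr4a2 and Nr4a3 (horizontal axis, bases from the gene start), with arrowheads pointing along the strand of the match. Each gene holds 4 matches, and the match nearest a start, at -40 to -36, is that of Nr4a1.

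Nr4a1 read 6.31, 6.83 and 7.86 at E17.5, E18.5 and N0 in pups of WT mothers, and 6.06, 6.49 and 10.67 in pups of Abcb11-/- mothers. The lungs were within 0.34 of each other before birth, and the N0 array from the Abcb11-/- mother was 2.82 above its counterpart. Nr4a2 read 5.44, 5.79 and 5.93 with WT mothers and 5.42, 5.66 and 7.61 with Abcb11-/- mothers. Nr4a3 read 3.39, 3.37 and 3.66 with WT mothers, near the floor of the arrays, and 3.29, 3.14 and 6.15 with Abcb11-/- mothers. In both genes the single high array was the same one.

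Not every probe set showed the difference. Nr4a1 had 1 probe set. Of 5 for Nr4a2, a second one rose by 1.31 to 6.33 on that array, and the other 3 differed by -0.24, 0.12 and 0.02. Of 3 for Nr4a3, the other 2 differed by 0.25 and -0.79, at values of at most 3.81. With the mean over every probe set of a gene, the difference was 0.58 for Nr4a2 and 0.65 for Nr4a3, so that of the 3 genes only Nr4a1 still passed 1.5-fold and the brightness minimum.

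Other immediate early genes were high on the same array. Of 15 measured, 8 were at least 1.5-fold higher and 0 lower at N0 with the Abcb11-/- mother, with a median difference of 1.02, and the summed level of the list was 13.96 against 13.09 (log2). Egr1 was 3.31 higher, Atf3 2.16 and Fos 1.80, while Klf6 (0.00) and Ier3 (0.06) were level. At E17.5 and E18.5 the median difference of this list was 0.12 and 0.02. Neutrophil markers were lower on that array (4 of 8, median -0.58) and heart muscle markers higher (3 of 11, median 0.74). The part of tissue handling, of other cells and of the mother in these values was not tested, and with 1 array per group a difference between litters or dissections cannot be told apart from one between mothers.

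**Figure D4:**
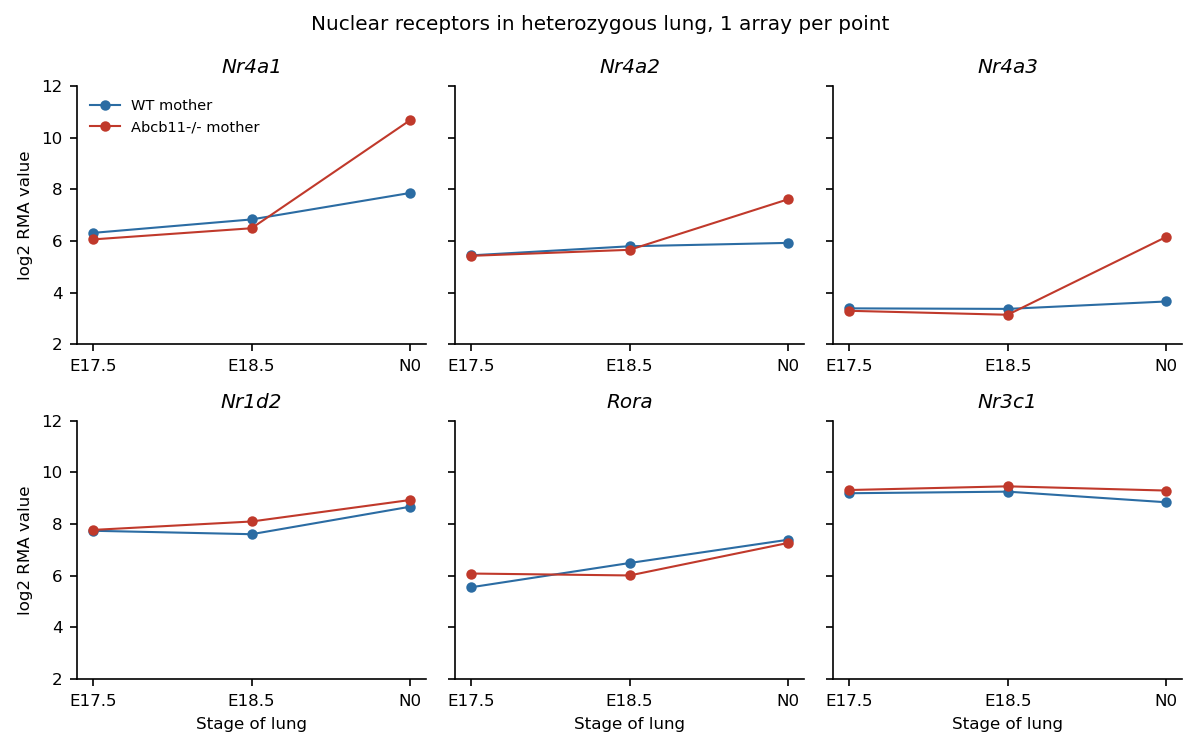
Log2 RMA values (vertical axis) of 6 nuclear receptors in heterozygous lung at E17.5, E18.5 and N0 (horizontal axis), with pups of WT mothers in blue and of Abcb11-/- mothers in red; each point is 1 array. Nr4a1, Nr4a2 and Nr4a3 part at N0, whereas Nr1d2 and Rora rise at N0 with both mothers.

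Birth was compared by setting both N0 arrays against both E18.5 arrays in a limma fit with stage and mother. No gene passed at an adjusted p below 0.05 (0 of 17097, 0%), so no member did. Without the E17.5 arrays, 24 genes were higher and 11 lower, still with no member (adjusted p = 0.0867 for Nr1d2 and 0.0747 for Rora). Without adjustment, 2098 genes (12.3%) had p below 0.05, and 7 of the 42 members did, 5 higher and 2 lower. With the same arrays read without a test, 3 of 14 bright members were at least 1.5-fold higher at N0 than at E18.5 with both mothers (Nr1d2, Rora and Nr4a1) and 0 were lower, against 2.05% and 1.52% of all genes.

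Nr1d2, the clock repressor, read 7.74 and 7.78 at E17.5, 7.61 and 8.10 at E18.5, and 8.67 and 8.93 at N0, the WT mother first. Both N0 lungs lay above all earlier lungs, and the rise at birth was 1.06 and 0.83 with the respective mothers (limma 0.95 ± 0.16, adjusted p = 0.182). Rora read 5.56 and 6.09 at E17.5, 6.49 and 6.01 at E18.5, and 7.40 and 7.27 at N0. It too was highest in both N0 lungs (0.90 and 1.26 above E18.5, limma 1.08 ± 0.25, adjusted p = 0.246). Of the other clock genes, Per1 rose by 0.80 and 0.71 and Cry2 by 0.91 and 0.97, while Per3 differed by -0.66 and -0.41. Of the 15, 4 were at least 1.5-fold higher and 1 lower with the WT mother, and 3 and 1 with the Abcb11-/- mother. The median of the 15 was -0.18 with the WT mother and 0.05 with the Abcb11-/- mother.

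Nr4a1 rose at birth by 1.03 with the WT mother and by 4.18 with the Abcb11-/- mother. The fit put the mean rise at 2.60 ± 0.76 (adjusted p = 0.308), and without the N0 array from the WT mother it was 4.16 (adjusted p = 0.0389), with 1 N0 array left that was assumed to vary like the other groups. Without the N0 array from the Abcb11-/- mother it was 1.05 (adjusted p = 0.165). Vdr rose by 0.62 and 0.72 from a dim level (4.24 and 4.17 at E17.5, 3.51 and 3.90 at E18.5, 4.13 and 4.62 at N0; adjusted p = 0.288). It had fallen by 0.73 and 0.27 between the embryonic days, so its N0 values lay near those of E17.5. Its second probe set, as dim, went the other way with the Abcb11-/- mother (4.25 at E18.5 and 3.94 at N0). Pparg (-0.37) and Nr3c2 (-0.37) were the members lower at birth by the unadjusted p.

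Between E17.5 and E18.5, 10 of all genes were called (0.0585%) and none was a member. The count over all genes rested on single arrays: leaving out the Abcb11-/- mother's E17.5 array, which stood apart, gave 134 higher and 173 lower, and leaving out that of the WT mother gave 35 and 106, with no member called either way. By unadjusted p below 0.05, Vdr (-0.50) and Nr5a2 (-0.52, dim) were lower, 2 of 42 members against 12.8% of all genes. No member moved 1.5-fold the same way with both mothers in this interval, with or without the brightness minimum. Rora, for example, rose by 0.94 with the WT mother and differed by -0.07 with the Abcb11-/- mother. Both stage comparisons use the E18.5 arrays.

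Nr3c1 was bright in every lung. It read 9.20 and 9.32 at E17.5, 9.26 and 9.46 at E18.5, and 8.85 and 9.30 at N0, the WT mother first. The lung of the Abcb11-/- mother was the higher at each stage, by 0.12, 0.21 and 0.45 (limma over the stages 0.26 ± 0.12, adjusted p = 0.926). Other probe sets did not keep this order: a second bright one was lower with the Abcb11-/- mother at E17.5 (8.94 and 8.88) and E18.5 (9.07 and 9.01), and with all 5 averaged the difference over the stages was 0.05. Its level at N0 did not differ from E18.5 beyond the fit's error (-0.29, 95% interval -0.65 to 0.07). Of 14 glucocorticoid target genes, 7 were at least 1.5-fold higher at N0 than at E18.5 and 1 lower with the WT mother, and 10 and 0 with the Abcb11-/- mother, with medians of 0.64 and 0.68. Over all genes, 5.03% were higher and 6.46% lower with the WT mother and 2.72% and 3.64% with the Abcb11-/- mother, and the medians were -0.02 and -0.03. Sgk1, a kinase of sodium transport, rose by 2.13 and 2.42, and Errfi1 by 1.45 and 1.80. Several of these genes, Dusp1 and Cdkn1a among them, also respond to stress.

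No lipid sensor or partner was called in lung. Rxra lay between 6.97 and 7.21 and Rxrb between 8.17 and 8.43 on all 6 arrays, and Rxrg between 2.82 and 3.06. Ppara read 4.78 and 5.21 at E17.5, 5.24 and 5.26 at E18.5, and 4.89 and 4.94 at N0 by the probe set used, the WT mother first. The Ppara probe set used in liver fell more than 1.5-fold at birth with both mothers, from 5.01 and 5.07 to 3.55 and 3.95. The remaining Ppara probe set read 5.34 and 4.87 at E18.5 and 4.05 and 4.68 at N0. Pparg read 5.27 and 5.40, then 5.36 and 5.67, then 4.95 and 5.34, and was the lower in the WT mother's pups at each stage. Ppard read 5.18 and 4.79, then 4.86 and 5.40, then 4.64 and 4.85. Nr1h3 read 4.85 and 5.26, then 5.66 and 5.23, then 5.35 and 5.59, with no order of the mothers that held across stages.

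The bile acid sensors were near the floor of the arrays in lung. Nr1h4 ranged from 2.62 to 3.03, Nr1i2 from 2.98 to 3.32, Nr1i3 from 2.87 to 3.21, and Nr0b2 from 2.96 to 3.32 over the 6 arrays, with either mother. None was higher by 1.5-fold with the Abcb11-/- mother at any stage, and a lower level would not be detectable so near the floor. The bright developmental receptors were as level: Nr2f2 lay between 9.94 and 10.14, Nr2f6 between 7.52 and 7.73, Nr2f1 between 6.41 and 6.76, and Thra between 7.40 and 7.51. Over the 14 lung members at 5 or more besides the Nr4a genes, Nr1d2 and Rora, the range over 6 arrays was 0.11 (Thra) to 0.81 (Nr1h3). This was by the probe set used for each gene, and the other Ppara probe sets ranged more widely than the one used.

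A dim member, Hnf4a, was apart before birth. It read 2.97 and 4.86 at E17.5, 3.60 and 3.07 at E18.5, and 3.17 and 3.32 at N0, so that the high value lay on the E17.5 array from the Abcb11-/- mother. On that array the summed hepatocyte list, which includes Hnf4a itself, stood at 14.57 against 10.94. Alb read 13.01 against 9.05 and Apoa1 read 10.68 against 5.33, so both were high on the same array as Hnf4a. Esr2 (-0.67) and Esrrb (-0.70), both below 4, were lower on the same array.

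Over the 3 stages together, no gene was called by the mother's genotype (0 of 17097, 0%; 867 at an unadjusted p below 0.05). Among members only Nr3c2 had an unadjusted p below 0.05, with differences of -0.22, -0.48 and -0.34 at the 3 stages (adjusted p = 0.926), from levels below 5. In the fit over stages the Nr4a1 difference was 0.74 ± 0.62 (adjusted p = 0.951), since it was large at N0 and slightly below 0 before birth.

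**Figure D5:**
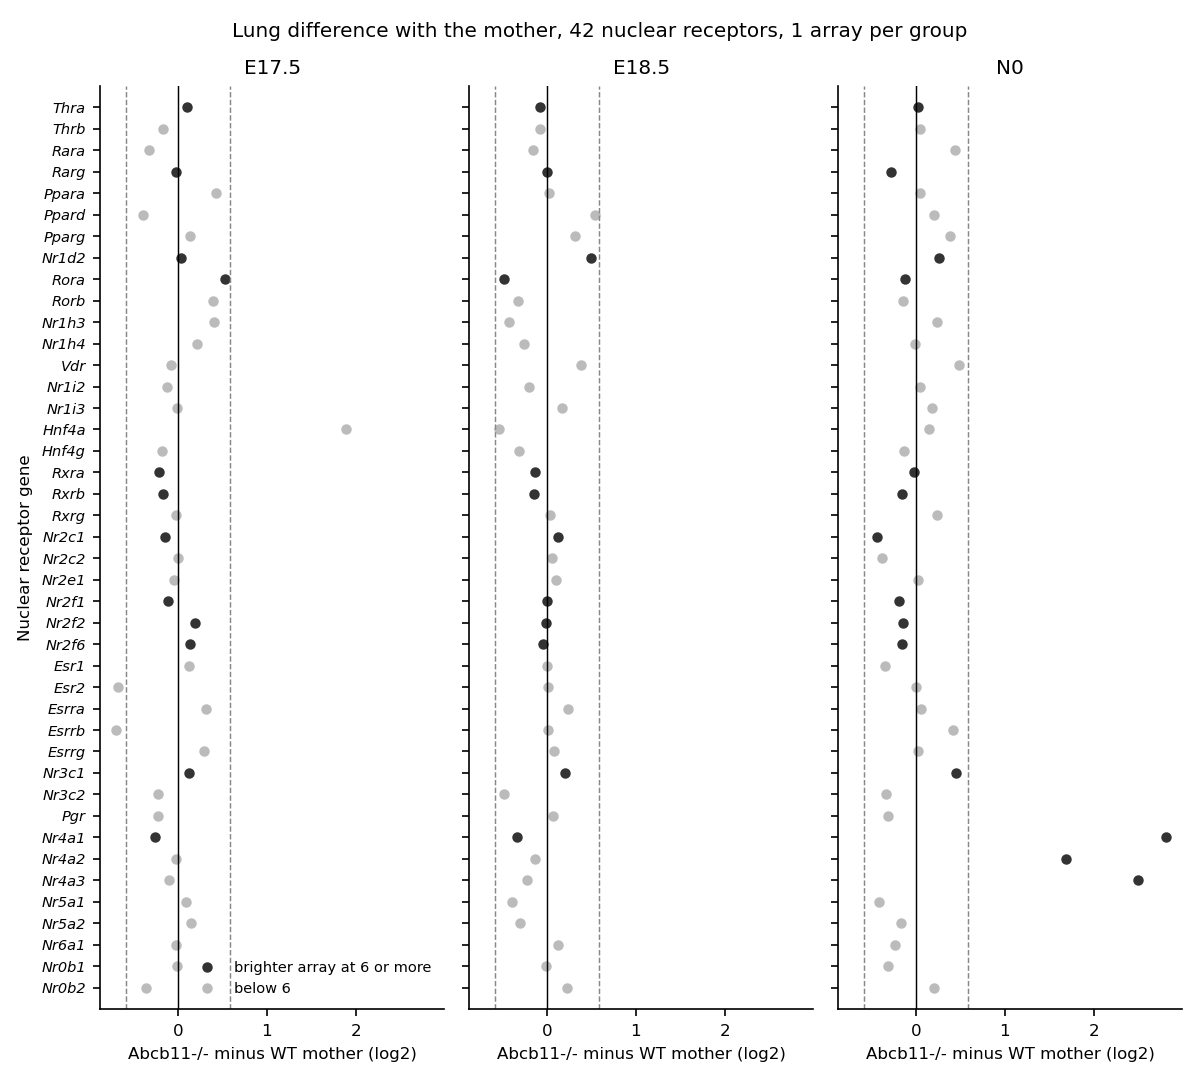
Difference between the lung of pups of Abcb11-/- and WT mothers (horizontal axis, log2) for the 42 measured nuclear receptors at E17.5, E18.5 and N0, 1 array per group; dark points reached a log2 value of 6 on the brighter array, grey points did not, and dashed lines mark 1.5-fold. The dark points outside the lines are Nr4a1 (2.82), Nr4a3 (2.50) and Nr4a2 (1.69) at N0, and the grey ones are Hnf4a, Esr2 and Esrrb at E17.5.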

How the data were processed

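The arrays measured total RNA from 6 liver samples and 6 lung samples. Per the labels and the study's methods, the authors summarized the probe intensities by RMA, and the deposited values are log2 (Partek 6.5 is named in the submitters' processing notes). Scanner files were not used here, so background correction and normalization stayed as deposited. Probe sets were named through the platform annotation: of 45037, 28898 had 1 gene symbol, 551 several and 15588 none. No column of values was left unmapped to a sample.

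limma 3.58.1 in R 4.3.3 (lmFit, eBayes) was fitted on 1 probe set per gene over 17097 genes, with Benjamini-Hochberg adjustment over all of them: genotype in liver, stage and mother in lung (2 residual degrees of freedom). Single lung arrays were compared by a fold of 1.5 where the brighter reached a log2 value of 6. The fits were tested on simulated data for bias and sign of the estimates, which does not show how many true changes the lung fits could call. Members and gene lists were chosen with earlier results of these data known. Every member is accounted for; values per array are given for called members, the bile acid and lipid sensors, Nr3c1 and members past the fold, and from each other list up to 4 called genes, besides a few named after their values were seen (Cyp7a1, Cyp3a11, Klf6, Ier3 and the lung, clock and marker genes). The limited number of arrays sets the precision.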

Additional observations from a re-analysis of the deposited data

How the results depend on the processing

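Of the liver calls among the members, Nr1i2 and Ppara passed under all limma alternatives tried (adjusted p up to 0.0367 and 0.00638), and no called member changed direction. Leaving out 1 array left 1 to 3 members called higher and 2 to 7 lower. The replicate numbers did not pair the livers, since same-numbered arrays correlated at -0.04, -0.04 and -0.14 after removal of the group means. With the replicate block, 1 member was called higher (Nr1i2) and 2 lower (Ppara, Nr2f2), and 429 and 242 of all genes against 740 and 498. By the methods' t-test, 6 members were higher and 9 lower at an unadjusted p below 0.05 (1685 and 1444 of all genes); after Benjamini-Hochberg adjustment 0 were higher and 1 lower (Ppara), with 26 and 23 of all genes. Median centring called 2 members higher (Nr0b2, Nr1i2) and 9 lower, with Nr1i3, Nr3c1 and Nr3c2 added. Averaging all probe sets of a gene called 4 members higher, with Thra added, and 5 lower, with Nr2f2 lost.

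In lung, a trended and robust prior called 1 member higher at birth (Nr1d2, adjusted p = 0.0368), and leaving out 1 array called 0 to 1 (Nr4a1, without the N0 array of the WT mother); the cause was not tested. Over all genes, birth gave 0 calls, 12 higher and 2 lower with averaged probe sets, 62 and 25 with that prior, and 13 and 5 among genes with a mean of at least 6. The interval before birth gave 9 higher and 1 lower, 130 and 67 with that prior, and 0 under quantile normalization or median centring. With no brightness minimum, 1 member was higher (Hnf4a) and 2 lower (Esr2, Esrrb) at E17.5. Averaging all probe sets left 1 member higher at N0 (Nr4a1); the mean takes in other probe sets of Nr4a2 and Nr4a3, 1 of which, for Nr4a2, read 5.61 and 5.63 at N0. All other alternatives left the counts of members called by the lung fits at 0. Signal near the floor limits what can be said of the dim members.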
